A study of Arabidopsis thaliana with 48 samples.

Results

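The loss of AGB1, the beta subunit of the heterotrimeric G protein, was followed in isolated guard cells of Arabidopsis thaliana on 24 of the 48 expression arrays of the study. All plants were of the Columbia (Col-0) ecotype. The 12 arrays without AGB1 came from the agb1-2 mutant (called agb1 here) and the agb1-2 gpa1-4 double mutant (agb1 gpa1), and the 12 with AGB1 came from the wild type (WT) and from gpa1-4 (gpa1), a mutant of the G protein alpha subunit GPA1. Each of the 4 genotypes had 3 arrays with 50 µM abscisic acid (ABA) for 3 h and 3 with the solvent, ethanol (EtOH). The agb1 effect is the log2 difference between the 12 arrays without AGB1 and the 12 with it, with gpa1 and ABA as covariates and the EtOH and ABA arrays of a genotype that share a replicate number treated as a pair. Each mutation was represented by 1 allele, so effects of the subunit and of other changes carried by that line cannot be told apart. The RNA of an array was pooled from guard cells of 300 leaves of 60 to 70 plants aged 5 weeks, and the labels are at odds on whether ABA was given to whole leaves or to the isolated cells.

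Heterotrimeric G proteins pass signals from the plasma membrane: when the alpha subunit exchanges GDP for GTP, it and the beta-gamma dimer each act on their own targets. Arabidopsis has a single canonical gene for G alpha, GPA1, and a single gene for G beta, AGB1, which works only with a gamma subunit. Guard cells are the paired epidermal cells that open and close the stomatal pore, and ABA, the drought hormone, closes it. Mutants of either subunit are known for altered stomatal responses to ABA, and agb1 mutants also for altered defence.

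Values are the deposited log2 expression values per probe set, of which 22746 were tested by limma, and a probe set is called at a Benjamini-Hochberg adjusted p under 0.05. The reference tables tied 13513 of them to 1 gene, and neither AGB1 nor GPA1 was among these, so the mutated genes could not be checked by name. Below, a listed gene or family member counts as measured only if such a probe set carries its name. The rest, 8730 of them tied to no gene, may read further listed genes. Guard cell arrays had medians of 5.05 to 5.25, and each correlated with the others of its group at a mean r of 0.976 to 0.991. FMA, a transcription factor of guard cell identity, ran from 8.10 to 11.66 on guard cell arrays with AGB1 and from 4.54 to 6.28 on leaf arrays with AGB1.

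Few probe sets were called for loss of G beta in guard cells, and most of those called fell by a modest amount. The agb1 effect was called for 125 probe sets, 0.55 percent of those tested, with 33 higher (0.145 percent) and 92 lower (0.404 percent) without AGB1, and 1924 had an unadjusted p under 0.05. The lowered probe sets had a median difference of -0.55, and 6 of the 92 fell at least 2-fold, whereas the raised ones had a median difference of 1.42 and 22 of the 33 rose at least 2-fold. Raised probe sets were also the noisier ones, with a median SE of 0.28 against 0.11 for the lowered and 0.10 for all tested. Of the 125, 58 were tied to 1 gene each, 14 raised and 44 lowered, and the other 67 were tied to none or to several. The sign was the same in all 4 separate comparisons (agb1 against WT and agb1 gpa1 against gpa1, each under EtOH and under ABA) for 32 of the 33 raised and all 92 lowered probe sets; these comparisons make up the tested effect. Taken alone, agb1 against WT was called for 7 probe sets under EtOH (0.0308 percent) and 3 under ABA (0.0132 percent), and agb1 gpa1 against gpa1 for 3 under each (0.0132 percent). Averaging each EtOH and ABA pair first, which leaves 12 values, called 22 probe sets, 3 higher and 19 lower, so the count of 125 leans on how the pairs are modelled. All 22 were among the 125, and they included AT1G62510, AT1G20310 and AT5G48540 among named genes.

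**Figure D1:**
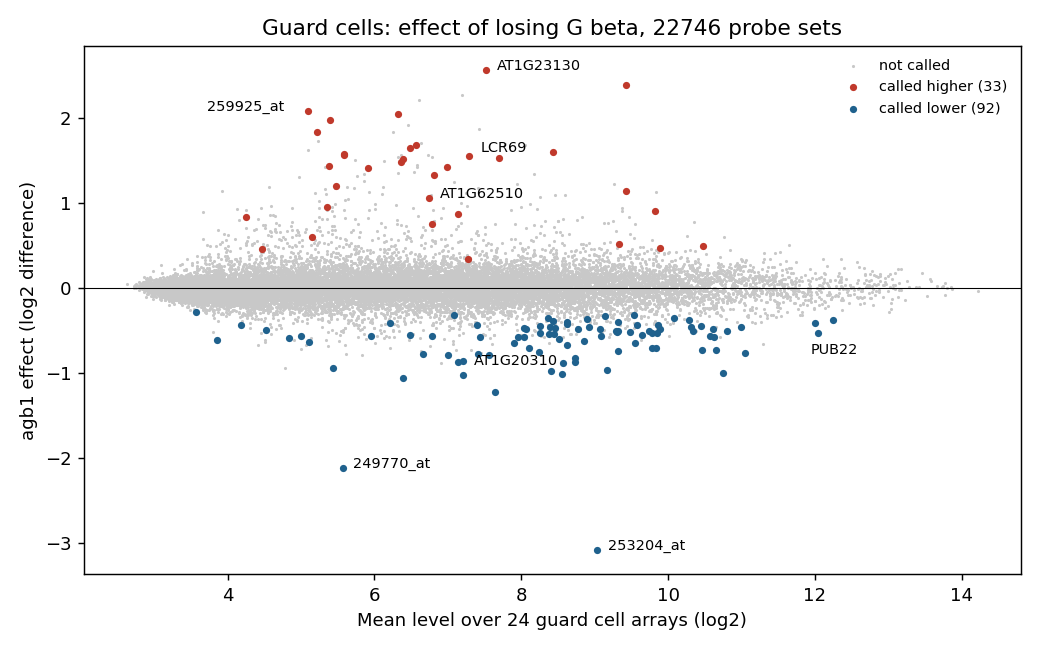
Each point is 1 of 22746 probe sets, with its mean log2 level over the 24 guard cell arrays on the x axis and its agb1 effect (log2 difference, without AGB1 minus with AGB1) on the y axis. The 92 lowered probe sets lie mostly between 0 and -1, while the 33 raised ones reach 2.57.

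The probe set that fell most, 253204_at, has no gene in the reference tables, so whether it measures the AGB1 transcript itself was not tested. Under EtOH it read 11.05, 11.02 and 11.06 in WT, 10.91, 10.56 and 10.89 in gpa1, 8.48, 8.39 and 7.67 in agb1 and 6.50, 6.39 and 6.54 in agb1 gpa1. Every array without AGB1 lay below every array with it under both treatments, and the double mutant lay below the agb1 single mutant. Its agb1 effect was -3.09 (SE 0.28), with an adjusted p of 1.23e-06, and in leaves -3.12 (SE 0.30), with an adjusted p of 1.14e-05. A second unnamed probe set, 249770_at, ran from 4.95 to 7.60 with a median of 6.80 with AGB1 and from 3.93 to 5.07 with a median of 4.53 without it. The groups did not overlap within either treatment (4.42 to 5.07 against 6.60 to 7.60 under EtOH), although its values with AGB1 were widely spread under ABA, from 4.95 to 7.29. Its agb1 effect was -2.12 (SE 0.23), with an adjusted p of 2.32e-05.

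Among named genes, AT1G20310 had the smallest adjusted p. The reference tables give this locus, and most of the loci below, no function. Under EtOH its values were 7.09, 6.76 and 6.61 in WT, 6.97, 6.90 and 6.49 in gpa1, 5.92, 6.01 and 5.82 in agb1 and 5.87, 6.14 and 6.17 in agb1 gpa1. Under ABA the arrays without AGB1 read 7.37 to 7.75 and those with it 8.11 to 9.03, so the groups did not overlap in either treatment. The agb1 effect was -0.86 (SE 0.10), with an adjusted p of 9.15e-05, and it was similar in each comparison, at -0.90 in WT and -0.73 in gpa1 under EtOH, and -0.87 and -0.95 under ABA. The gene's level was 1.63 log2 units higher with ABA over the 4 genotypes, so it kept a gap of about the same size while its level moved. Such separation in both treatments was seen for 12 of all probe sets (0.0528 percent), against 143 under EtOH (0.629 percent) and 84 under ABA (0.369 percent), and 11 of the 12 were called. The separation was read on the same arrays and the same split as the agb1 effect, so it is no separate evidence for a call.

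Several other lowered genes fell by close to 2-fold. AT5G48540 ran from 7.89 to 10.31 with a median of 9.18 with AGB1 and from 6.96 to 9.19 with a median of 8.06 without, an agb1 effect of -1.01 (SE 0.16) and an adjusted p of 0.00251. AT1G55450 ran from 9.75 to 12.23 with a median of 11.49 with AGB1 and from 8.99 to 11.17 with a median of 10.42 without, an effect of -0.998 (SE 0.17) and an adjusted p of 0.00586. For both genes the 6 arrays without AGB1 lay below the 6 with it under EtOH and overlapped them under ABA. AT4G30670 (-1.03, SE 0.20, adjusted p 0.0152) and AT1G07160 (-0.97, SE 0.20, adjusted p 0.0189) fell by a like amount with overlapping arrays. The next were AT1G22890 at -0.89, AT2G35730 at -0.78, AT3G49810 at -0.75, AT4G38550 at -0.65, AT1G79720 at -0.64, AT2G41380 at -0.63, AT2G32030 at -0.60 and AT4G30060 at -0.57, with adjusted p from 0.0108 to 0.0486. The probe set of AT4G38550 carries the suffix of sets that can match more than 1 transcript, so its value may be shared. The 29 other lowered genes ranged from -0.57 (AT2G26190) to -0.32 (AT1G01440).

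A few lowered genes carry names that give a function. UGT73D1, a UDP-glycosyltransferase of the class that attaches sugars to small molecules, fell by 0.82 on the log2 scale (SE 0.19, adjusted p 0.0429). It was the 1 member called of 43 UDP-glycosyltransferases measured, whose median was -0.05, and its fall was -1.13 and -1.26 against WT but -0.41 and -0.49 in the gpa1 background (EtOH, then ABA); the interaction, 0.74 (SE 0.36), was not called (adjusted p 1). CYP71B5, a cytochrome P450 mono-oxygenase, fell by 0.71 (SE 0.14, adjusted p 0.0155) and was the 1 called of 24 P450 genes measured, whose median was -0.03. AT1G55460, annotated as KIN17, a DNA- and RNA-binding protein, had an effect of -0.48 (SE 0.09, adjusted p 0.0153). The medians of these families sat close to the median of all 13355 named genes, -0.01, of which 14 rose and 44 fell.

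PUB22 and PUB23 are closely related U-box E3 ubiquitin ligases, known in Arabidopsis to damp immune signalling and the drought response. PUB22 read 12.68, 12.45 and 12.61 in WT and 12.64, 12.56 and 12.60 in gpa1 under EtOH, against 11.78, 12.22 and 12.29 in agb1 and 12.48, 12.13 and 12.15 in agb1 gpa1. Under EtOH 1 array of the double mutant reached into the WT range, and under ABA the groups separated (11.15 to 11.62 without AGB1, 11.77 to 12.25 with it). The agb1 effect was -0.53 (SE 0.09), with an adjusted p of 0.00486. PUB23 ran from 11.34 to 12.86 with a median of 12.31 with AGB1 and from 10.98 to 12.56 with a median of 11.77 without, with overlap in both treatments and an effect of -0.42 (SE 0.10) at an adjusted p of 0.047. The call of PUB23 was kept in 5 of 24 fits that each left out 1 array, and without replicate 2 of agb1 gpa1 under EtOH its adjusted p was 0.0803. Of 9 U-box genes measured, these 2 fell and 7 were not called, with a median of -0.04, against 0.404 percent of all probe sets lowered and 44 of 13355 named genes; this group was drawn after the values were seen. In leaves, on arrays that took no part in the choice, PUB22 had an agb1 effect of -0.68 (SE 0.18) and PUB23 of -0.83 (SE 0.24), neither called at adjusted p of 0.448 and 0.534.

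**Figure D2:**
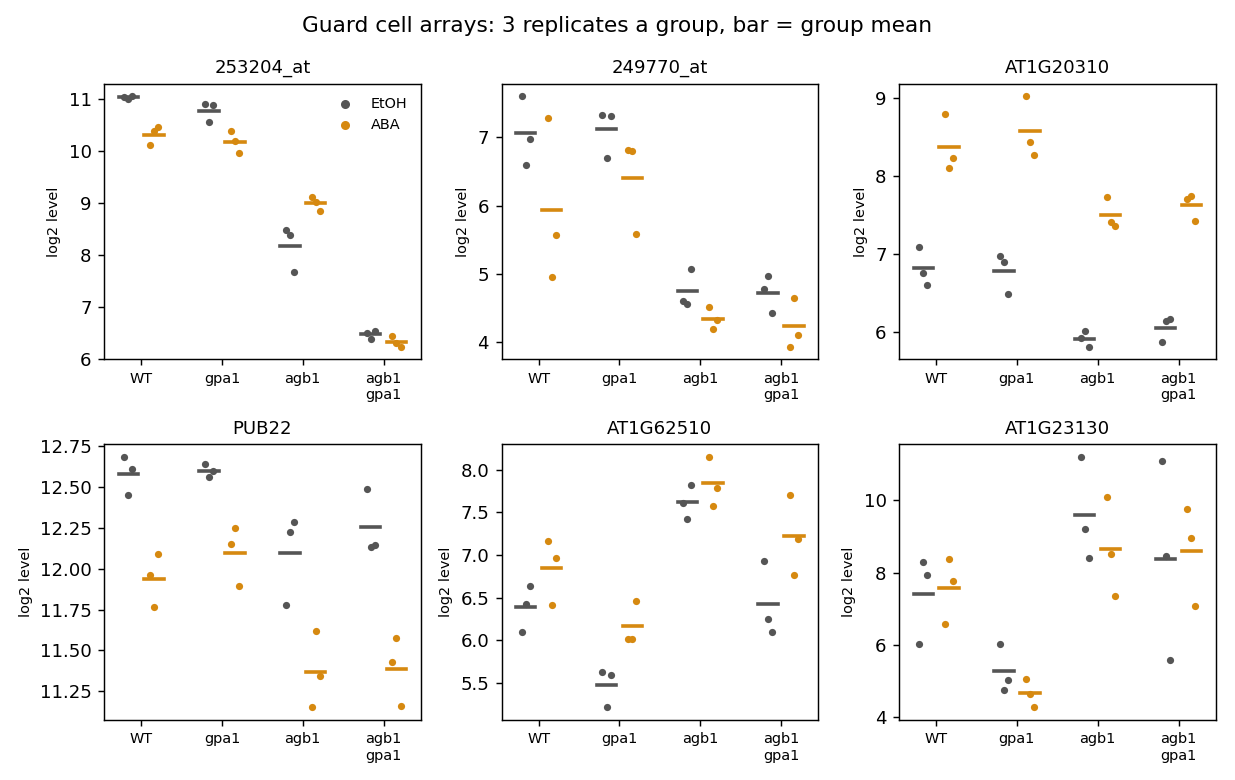
Log2 levels of 6 probe sets or genes on the 24 guard cell arrays, by genotype on the x axis, with EtOH in grey and ABA in orange; each point is 1 array and each bar the mean of 3. 253204_at, 249770_at and AT1G20310 separate arrays with and without AGB1 in both treatments, PUB22 does so under ABA, and the group means of AT1G62510 and AT1G23130 are lowest in gpa1 within each treatment.

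The raised genes had larger differences and a wider spread. AT1G23130 rose most among named genes. Under EtOH it read 6.03, 8.30 and 7.94 in WT, 6.03, 4.76 and 5.04 in gpa1, 11.19, 9.19 and 8.39 in agb1 and 11.07, 8.46 and 5.60 in agb1 gpa1. Arrays of the double mutant alone thus spanned more than the gap between groups, and arrays with and without AGB1 overlapped in both treatments. The agb1 effect was 2.57 (SE 0.55), with an adjusted p of 0.0259 that became 0.0484 without replicate 1 of agb1 under EtOH and 0.304 on pair means.

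AT1G62510 was the raised gene with the smallest adjusted p. It ran from 5.21 to 7.17 with a median of 6.25 with AGB1 and from 6.10 to 8.15 with a median of 7.50 without. Group means under EtOH were 6.39 ± 0.27 in WT, 5.48 ± 0.23 in gpa1, 7.62 ± 0.20 in agb1 and 6.42 ± 0.44 in agb1 gpa1 (SD, n = 3), so that the double mutant lay near WT. Its agb1 effect was 1.06 (SE 0.14), with an adjusted p of 4.26e-04, and its gpa1 effect, estimated in the same fit, was -0.85 (SE 0.14), with an adjusted p of 0.0151. The difference between the effects was 1.91 (SE 0.20), with an adjusted p of 1.80e-05.

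LCR69, also named PDF2.2, encodes a small cysteine-rich peptide of the plant defensin family. It ran from 4.96 to 8.87 with a median of 6.37 with AGB1 and from 6.81 to 9.48 with a median of 7.99 without, overlapping in both treatments, with an agb1 effect of 1.55 (SE 0.30) and an adjusted p of 0.0153. It was the 1 called of 12 low-molecular-weight cysteine-rich peptide genes measured, whose median was 0.03, against 0.145 percent of all probe sets raised and 14 of 13355 named genes; LCR68 had a difference of 1.19 that missed the threshold at an adjusted p of 0.0848, and the group was drawn after the values were seen. AT1G59740, annotated as NPF4.3 of the nitrate and peptide transporter family, had an effect of 1.41 (SE 0.29), with an adjusted p of 0.0231. AT3G54400 (1.64, SE 0.29), AT5G44400 (1.57, SE 0.28) and AT5G61660 (1.53, SE 0.27) shared an adjusted p of 0.00902, and for the first 2 of these the arrays did not overlap under EtOH. AT2G47550 was 1.60, AT3G43270 1.52, AT1G65500 1.203, AT1G05340 0.91, AT3G18560 0.87 and AT2G47440 0.52, with adjusted p from 0.0157 to 0.047. Among unnamed probe sets, 257054_at (2.39, SE 0.54, adjusted p 0.0393) and 259925_at (2.08, SE 0.32, adjusted p 0.00208) rose most, and 259925_at did not overlap in either treatment.

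Some of these calls were not kept when any of several single arrays was left out. In 24 fits that each left out 1 array, the call was kept 7 times for AT1G05340, 7 for AT1G65500, 8 for AT3G18560, 5 for 257054_at, 5 for AT2G32030, 7 for UGT73D1, 12 for AT2G35730 and 14 for AT1G79720. It was kept 18 times for AT3G49810, 20 for AT2G47440, 21 for AT1G22890 and 23 for AT2G41380. Leaving out replicate 1 of agb1 under EtOH gave the highest adjusted p for AT1G05340 (0.0866), AT3G18560 (0.0845), 257054_at (0.0724), AT1G79720 (0.0663) and AT3G49810 (0.0599), and leaving out replicate 3 of gpa1 gave it for AT1G65500 (0.0689, ABA array), UGT73D1 (0.0742, ABA array) and AT2G32030 (0.0884, EtOH array). Replicate 2 of WT under EtOH gave it for AT2G35730 (0.0634) and AT2G41380 (0.0519), and replicate 2 of agb1 gpa1 under EtOH for AT1G22890 (0.0526) and AT2G47440 (0.0568).

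**Figure D3:**
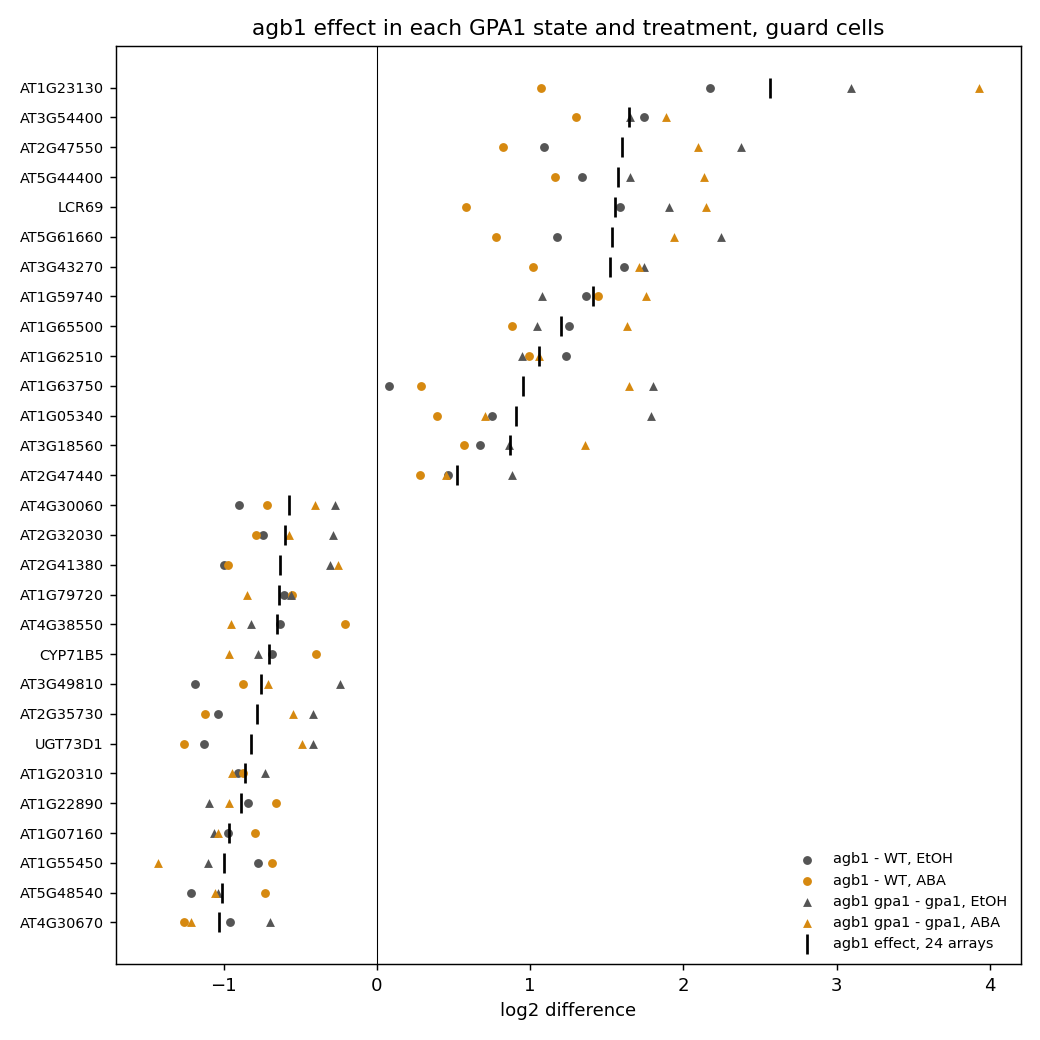
Log2 difference between arrays without and with AGB1 for the 14 raised genes and the 15 most lowered genes, in each of 4 separate comparisons (circles, agb1 minus WT; triangles, agb1 gpa1 minus gpa1; grey, EtOH; orange, ABA) and over all 24 arrays (black bar). All points lie on the side of the overall effect; for AT1G23130, AT2G47550 and AT1G63750 the triangles lie far to the right of the circles.

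The raised and lowered sets also differed in where they are normally high. Of the 33 raised probe sets, 31 had a higher median on the 12 leaf arrays with AGB1 than on the 12 guard cell arrays with AGB1 (93.9 percent, against 43.2 percent of all tested). Of the 92 lowered probe sets, 6 did (6.52 percent). On arrays without AGB1, where a raised probe set is by choice at its highest in guard cells, the leaf median was still higher for 27 of the 33 (81.8 percent, against 45.9 percent of all) and for 13 of the 92 (14.1 percent). Transcripts that rose were thus mostly leaf-abundant ones, and transcripts that fell mostly guard cell-abundant ones. AT1G23130 had a leaf median of 12.25 with AGB1, LCR69 10.78 and AT1G62510 12.47, against guard cell medians of 6.03, 6.37 and 6.25. PUB22 and AT1G07160 had leaf medians of 8.63 and 4.69, against 12.35 and 9.70 in guard cells.

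Markers of other leaf cells were read beside this. The 5 mesophyll genes measured, all of photosynthesis, had agb1 effects of 0.20 for RCA (Rubisco activase), 0.21 for PRK (phosphoribulokinase), 0.20 for SBPASE (sedoheptulose bisphosphatase), 0.19 for PSAN (a photosystem I subunit) and 0.11 for LHCB4.2 (a light-harvesting protein), none called. All 5 were above 0, and the log2 of their summed level ran from 11.65 to 12.87 without AGB1 (median 12.63) and from 11.03 to 13.09 with it (median 12.37), against a leaf median of 14.22. SWEET11, a sucrose exporter of the phloem and the 1 vascular marker measured, ran from 4.02 to 5.33 with a median of 4.40 with AGB1 and from 3.92 to 6.53 with a median of 5.17 without, an effect of 0.58 (SE 0.25) that was not called (adjusted p 0.5), with a leaf median of 10.48. PSAN was -0.03 on EtOH arrays alone. Of 12 epidermal and trichome markers none had a probe set tied to it by name, which does not show that the array lacks them. Of 20 listed guard cell markers 3 had such a probe set, FMA, MUTE and SPCH, all transcription factors of the stomatal lineage. Their effects were -0.08, 0.01 and 0.20, none called. MUTE and SPCH were dim in both sample types (guard cell medians with AGB1 of 3.27 and 3.64, leaf medians of 3.46 and 3.59). FMA alone thus stood higher in guard cells and made up nearly all of the summed level of the 3. FMA also had an ABA difference of -2.46 over the 4 genotypes, so the sum is given by treatment. Its log2 had group means under EtOH of 10.95 in WT, 11.26 in gpa1, 11.04 in agb1 and 10.73 in agb1 gpa1. Under ABA these means were 8.58, 8.55, 8.70 and 8.56. The part of other cells' RNA in the agb1 effect was not tested, and fewer cells of a type and less RNA per cell cannot be told apart in such samples.

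Few other members of the G protein pathway were measured by name. PRN, a pirin-like protein known to bind GPA1, had an agb1 effect of 0.07 (SE 0.15), and BIK1, a cytoplasmic kinase of immune receptor complexes, of -0.12 (SE 0.10); neither was called, and they were the 2 measured of 26 genes listed. No member passed among 9 ABA-induced genes, which included the dehydrins and cold-regulated genes COR47 (0.22), LTI30 (0.11) and COR15A (0.32) and had a median of 0.13. No member passed among 5 touch and wound genes, all of them below 0, of which the zinc finger factor STZ had the smallest unadjusted p (-0.18, SE 0.06, unadjusted p 0.00875, adjusted p 0.297). Of 4 salicylate and immune genes, the bacterial elongation factor receptor EFR had a difference of -0.38 and ECS1 of 0.98, with adjusted p of 0.394 and 0.54. None of 7 WRKY factors was called; WRKY6 had a difference of -0.36 (SE 0.09, adjusted p 0.0875). None was called of 28 expansins and xyloglucan hydrolases (median -0.02) or 18 RALF and CLE peptides (median 0.00). Nor was any of 12 ubiquitin-specific proteases (median -0.01) or 69 chloroplast-encoded genes (median -0.12), against the 0.55 percent of all probe sets. Of the chloroplast-encoded genes 55 were below 0, against 7221 of the 13355 named genes. Their gpa1 effects in guard cells were above 0 for 56, and their agb1 effects in leaves for 54, against 12651 and 12036 of all 22746 probe sets. For the gpa1 effect 1 of the 69 was called, and it was higher, against 0.0044 percent of all probe sets called higher.

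Both the raised and the lowered set had more negative gpa1 effects than all probe sets. The gpa1 effect itself was called for 21 probe sets (0.0923 percent), 1 higher (0.0044 percent) and 20 lower (0.0879 percent), and the difference between the agb1 and gpa1 effects for 138 (0.607 percent), 110 higher (0.484 percent) and 28 lower (0.123 percent). Both effects come from the same 24 arrays. Among the 33 probe sets raised without AGB1, the gpa1 effect had a median of -0.73 and was below 0 for 28 (84.8 percent, against 44.4 percent of all tested), and among the 92 lowered a median of -0.10 and was below 0 for 61 (66.3 percent). The median level of the 33 on an array ran from 5.04 to 5.78 on the 6 gpa1 arrays, from 5.87 to 6.97 in WT, from 6.10 to 7.71 in agb1 gpa1 and from 6.995 to 8.44 in agb1. The gpa1 arrays lay below all others, and the double mutant overlapped both WT and agb1. For the 92 lowered probe sets, WT (8.81 to 9.31) and gpa1 (8.82 to 9.01) overlapped each other, as did agb1 (8.30 to 8.61) and agb1 gpa1 (8.17 to 8.53), and the latter pair lay below the former; these sets were chosen for that gap between pairs. AT2G47550 had an agb1 effect of 1.60 and a gpa1 effect of -1.50 (adjusted p 0.0604), with a difference between them of 3.09 (SE 0.46) at an adjusted p of 0.00151.

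Whether the agb1 effect depended on GPA1 was tested as an interaction, which was called for 3 probe sets (0.0132 percent). AT1G63750 read 3.84, 3.62 and 4.02 in gpa1 under EtOH, while WT (5.96, 5.59 and 5.97), agb1 (6.003, 5.48 and 6.28) and agb1 gpa1 (5.76, 5.56 and 5.56) overlapped one another. Its agb1 effect, 0.95 (SE 0.19), was larger in the gpa1 background, where it was 1.80 under EtOH and 1.64 under ABA, against 0.08 and 0.29 in WT. The interaction was 1.54 (SE 0.20), with an adjusted p of 0.0017, and 0.117 on pair means. In leaves gpa1 was also the lowest group mean, at 4.89 ± 0.67 under EtOH against 6.89 ± 0.35 in WT (SD, n = 3).

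In guard cells the unnamed 253271_s_at, whose suffix marks sets that can match more than 1 transcript, was high in the agb1 single mutant only. In leaves its group means under EtOH were 3.46 in WT, 4.85 in agb1, 3.32 in gpa1 and 3.70 in agb1 gpa1. Under ABA they were 5.89 in WT, 6.54 in agb1, 5.51 in gpa1 and 5.85 in agb1 gpa1, so agb1 had the highest leaf mean in each treatment. Guard cell group means under EtOH were 4.205 ± 0.21 in WT, 8.34 ± 0.64 in agb1, 3.82 ± 0.09 in gpa1 and 4.33 ± 0.63 in agb1 gpa1 (SD, n = 3), so that the double mutant did not share the rise. The interaction was -3.45 (SE 0.36), with an adjusted p of 8.17e-05, and 0.0501 on pair means. For 253204_at the fall was deeper in the gpa1 background, -4.31 against -2.86 under EtOH, and the interaction was -1.99 (SE 0.19), with an adjusted p of 4.45e-05. In leaves too the double mutant had the lowest group mean, with means of 9.65 ± 0.31 in WT, 10.001 ± 0.07 in gpa1, 7.86 ± 0.84 in agb1 and 5.64 ± 0.53 in agb1 gpa1 under EtOH (SD, n = 3). An interaction in leaves was not tested.

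**Figure D4:**
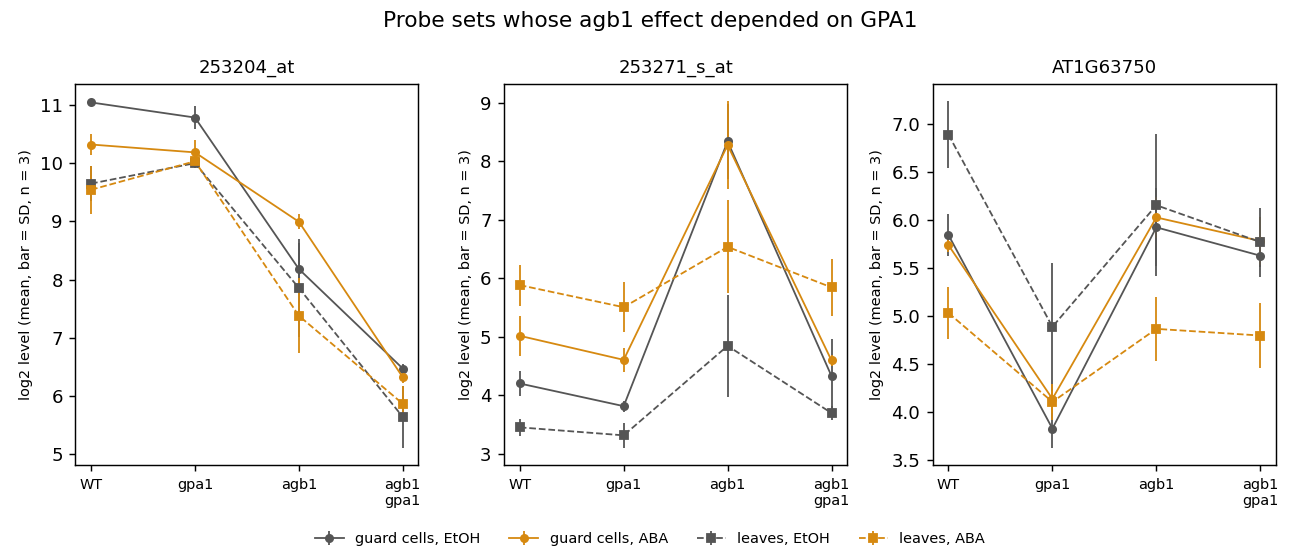
Group means of log2 level (bars, SD, n = 3) by genotype for 3 probe sets whose agb1 effect depended on GPA1, in guard cells (solid) and leaves (dashed), with EtOH in grey and ABA in orange. 253204_at falls from WT and gpa1 to agb1 and again to agb1 gpa1, 253271_s_at peaks in agb1, and AT1G63750 is lowest in gpa1.

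The test of whether the agb1 effect differed with ABA called 2 probe sets (0.00879 percent), both unnamed, and neither was called when EtOH and ABA arrays were not paired. The agb1 effect on 253204_at was -2.86 under EtOH and -1.33 under ABA in WT, and -4.31 and -3.86 in gpa1. The average over both backgrounds gave an interaction of 0.99 (SE 0.14) and an adjusted p of 0.0229, which passed in 9 of 24 fits without 1 array and was highest, at 0.0928, without replicate 2 of agb1 gpa1 under EtOH. 260973_at had group means of 4.47 ± 0.13 in WT and 3.44 ± 0.001 in agb1 under EtOH, and of 3.86 ± 0.21 and 3.56 ± 0.08 under ABA (SD, n = 3). Its agb1 means lay below the array medians of 5.05 to 5.25, at levels where a fall with ABA may not be measurable. Its interaction was 0.76 (SE 0.12), with an adjusted p of 0.0414, which passed in 3 of 24 such fits and was highest, at 0.159, without replicate 2 of WT under EtOH. Counting these 2, 782 probe sets had an unadjusted p under 0.05 in this test. The 92 lowered probe sets had a median ABA difference, taken over the 4 genotypes, of -0.27, with 56 of them lower with ABA (60.9 percent, against 45.7 percent of all), and the 33 raised one of 0.31, with 9 lower with ABA (27.3 percent). AT1G55450 and AT5G48540 had ABA differences of -1.38 and -1.44, and AT1G20310 one of 1.63.

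Loss of G beta was also measured in leaves of plants grown beside those used for guard cells, on 24 arrays that share none with the guard cell comparison. Each leaf array pooled 10 leaves of 3 to 4 plants, against 300 leaves of 60 to 70 plants for guard cells. In leaves the agb1 effect was called for 4 probe sets (0.0176 percent), and 253204_at was 1 of them. Whether the smaller pools bear on the number of calls was not tested. Of the 92 probe sets lowered in guard cells, 65 had a leaf effect below 0 (70.7 percent, against 47.1 percent of all tested), with a median of -0.11. Of the 33 raised, 20 had a leaf effect above 0 (60.6 percent, against 52.9 percent), with a median of 0.10. AT1G23130 had 0.29 (SE 0.09) in leaves, AT3G54400 0.37 (SE 0.31), AT4G38550 -0.59 (SE 0.25) and AT5G48540 -0.47 (SE 0.24), none called.

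**Figure D5:**
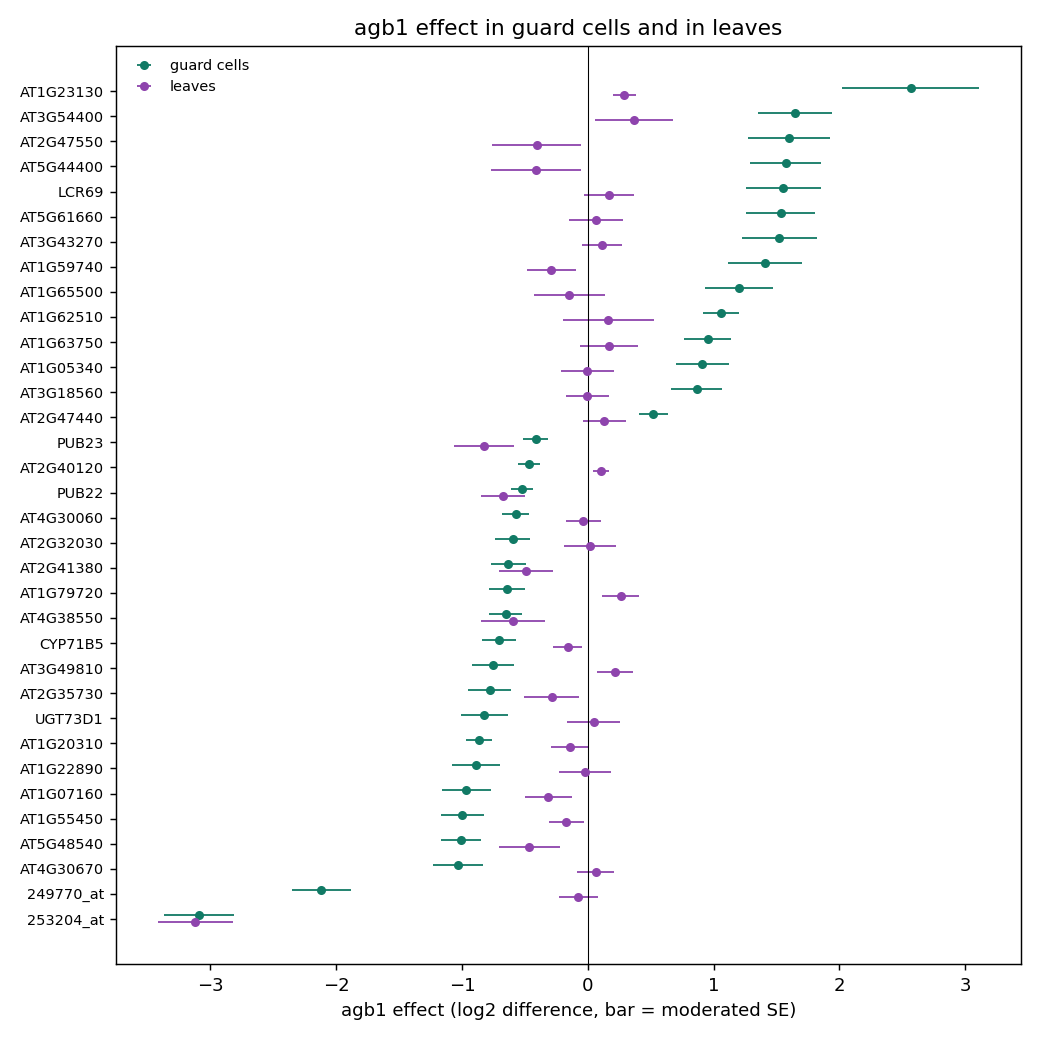
agb1 effect (log2 difference, bars show the moderated SE) in guard cells (green) and leaves (purple) for the 14 raised and 15 most lowered genes with PUB22, PUB23, AT2G40120, 249770_at and 253204_at. Leaf effects lie between -0.83 and 0.37 except for 253204_at, at -3.12.

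The agb1 effect differed between guard cells and leaves at 9 probe sets (0.0396 percent), with the guard cell value lower at 7 (0.0308 percent) and higher at 2 (0.00879 percent). None was called among probe sets with means of at least 6 (794 at an unadjusted p under 0.05 by limma). 249770_at had a leaf effect of -0.08 (SE 0.16) at low leaf levels, from 3.18 to 4.29 with a median of 3.58 with AGB1, where a fall may not be measurable, and the difference was -2.04 (SE 0.29), with an adjusted p of 1.73e-04. AT2G40120 ran from 8.25 to 8.99 with a median of 8.74 in guard cells with AGB1 and from 7.77 to 8.57 with a median of 8.21 without, a fall of 0.47 (SE 0.09, adjusted p 0.0111). Its leaf level was low, with medians of 3.71 and 3.76, and the effects differed by -0.57 (SE 0.11), with an adjusted p of 0.0283. AT3G55050 was not called in either, at -0.21 in guard cells and 0.23 in leaves, but the difference was called (-0.44, SE 0.09, adjusted p 0.0283). For raised genes the difference did not pass: it was 2.28 (SE 0.57) for AT1G23130 (adjusted p 0.105), 1.70 (SE 0.37) for AT1G59740 (0.0642) and 1.39 (SE 0.37) for LCR69 (0.15). For 253204_at it was 0.03 (SE 0.42), an adjusted p of 0.994.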

How the data were processed

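Guard cell RNA of 4 genotypes with EtOH or ABA was measured on 24 one-colour arrays, and leaf RNA on another 24. The authors deposited log2 expression values per probe set, made with RMA and affy per the submitters' processing notes; versions and whether all 48 arrays were normalized together are not given in the sources used here. No value was changed. After 64 control probe sets were left out, 22746 were tested, and 147 genes had several probe sets, of which the one with the highest guard cell mean was named. The number of arrays limits the precision.

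Main effects came from limma 3.58.1 in R 4.3.3 (additive model of agb1, gpa1 and ABA, empirical Bayes moderation, two-sided, Benjamini-Hochberg over 22746). Simple comparisons and interactions came from 8 group means, and the contrast with leaves from all 48 arrays. EtOH and ABA arrays with the same number in a genotype were a random block (consensus correlation 0.288): the numbers come from the labels, and deviations from group means correlated at 0.204 to 0.644 in all 12 pairs, against at most 0.126 for other numbers. Same-numbered arrays of agb1 and WT, and of agb1 gpa1 and gpa1, correlated at -0.185 to 0.407. The main fit did not pair genotypes by number, and a replicate block was run as an alternative. Replicates 2 and 3 of agb1 gpa1 and gpa1 under ABA, at 0.314 and 0.407, lay within the range of the pairs. Differently numbered arrays were not compared across genotypes, so a batch shared by a replicate number was not excluded. The labels call replicates independent biological ones.

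Named are the 15 most raised and 15 most lowered called genes (14 were raised), up to 4 called members of a list, G protein and cell type marker genes, up to 5 genes for each interaction and the leaf contrast, and 2 raised and 2 lowered unnamed probe sets; others were chosen after their values were seen. Members and lists were chosen with earlier results of these data known. Several word-matched families caught unrelated names and are not reported; for U-box and cysteine-rich peptide genes stricter matches were used. The fitting steps were tested on simulated data. Promoter motifs were not analysed here. Alternatives varied pairing, replicate block, scaling, filters, moderation, model and single arrays.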

Additional observations from a re-analysis of the deposited data

Results flagged for a closer look

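The agb1 effect in guard cells differed between the GPA1 backgrounds at 3 probe sets by limma's interaction test: 253204_at by -1.99 (SE 0.19) at an adjusted p of 4.45e-05, 253271_s_at by -3.45 (SE 0.36) at an adjusted p of 8.17e-05 and AT1G63750 by 1.54 (SE 0.20) at an adjusted p of 0.0017. It differed between ABA and EtOH at 253204_at by 0.99 (SE 0.14) at an adjusted p of 0.0229 and at 260973_at by 0.76 (SE 0.12) at an adjusted p of 0.0414, but these 2 were called in 9 and 3 of 24 fits without 1 array, and in neither case when EtOH and ABA arrays were not paired.

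It differed between guard cells and leaves at 9 probe sets, by the test of that difference. Guard cells had the lower value at 249770_at (-2.04, SE 0.29, at an adjusted p of 1.73e-04), AT2G40120 (-0.57, SE 0.11, at an adjusted p of 0.0283), 250990_at (-0.71, SE 0.14, at an adjusted p of 0.0283), 257479_at (-0.95, SE 0.19, at an adjusted p of 0.0283), 257526_s_at (-1.26, SE 0.25, at an adjusted p of 0.0283), AT3G55050 (-0.44, SE 0.09, at an adjusted p of 0.0283) and 257748_at (-0.91, SE 0.19, at an adjusted p of 0.0406). Leaf group means lay between 3.26 and 4.54 at 249770_at, AT2G40120, 257479_at, 257526_s_at and 257748_at, levels at which a fall in leaves may not be measurable. Of these, 257526_s_at matches both AT3G09330 and AT3G09340. Guard cells had the higher value at 266975_at (1.28, SE 0.24, at an adjusted p of 0.0283) and 256169_at (1.74, SE 0.36, at an adjusted p of 0.0406), where the leaf effects were -1.23 and -1.24 and the guard cell effects 0.05 and 0.50. Guard cell group means of 266975_at lay between 4.06 and 4.54, levels at which a fall in guard cells may not be measurable. The calls of 256169_at and 257748_at were kept in 24 and 22 of 48 fits that left out 1 array, and without replicate 3 of guard cell gpa1 under EtOH the adjusted p of both was 0.0779.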

How the results depend on the processing

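Single values were followed for the agb1 effects of genes and probe sets named by the rules above, and for called interactions and leaf contrasts. No called value among these changed direction under any alternative run. Of the uncalled values followed, 4 near 0 changed sign: PSAN was -0.03 on EtOH arrays only, FMA 0.07 on ABA arrays only, MUTE -0.03 with array centring (and as low as -0.02 in fits without 1 array), and PRN -0.01 without replicate 3 of agb1 under EtOH. Other printed values, among them other list members, single comparisons, gpa1 effects and leaf effects, were not followed singly. The agb1 effect in guard cells, 125 probe sets, was called at 323 with unpaired EtOH and ABA arrays, 206 with a replicate block, 68 with means of at least 6, 22 on pair means, 28 on EtOH arrays only, 6 on ABA arrays only and 62 at 1.5-fold or more; array centring, the brighter probe sets, robust moderation and a group-means model gave 174, 90, 111 and 85, and leaving out 1 array 89 to 161. All 125 were among the 323 and among the 206. The gpa1 effect (21) became 181 unpaired, 114 with the replicate block, 44 centred, 10 with means of at least 6, 35 with robust moderation, and 1 on pair means, on EtOH arrays and on ABA arrays alike, and 8 to 168 without 1 array (16 of 24 fits moved it by over 1.5 times; 168 without replicate 1 of agb1 gpa1 under EtOH, 8 without replicate 2 of WT under ABA). The difference between the effects (138) became 292 unpaired, 262 with the replicate block, 77 with means of at least 6, 2 on pair means, 90 from group means, 7 on EtOH and 1 on ABA arrays, and 66 to 223 without 1 array (7 of 24 fits moved it by over 1.5 times; 66 without replicate 1 of agb1, 223 without replicate 1 of agb1 gpa1, both under EtOH). With means of at least 6, agb1 against WT gave 3 (EtOH, from 7) and 1 (ABA, from 3), and agb1 gpa1 against gpa1 1 in each treatment (from 3), with 6 under EtOH by robust moderation; without 1 array these gave 3 to 9, 2 to 4, 2 to 19 (19 without replicate 3 of agb1 gpa1 under EtOH) and 2 to 7 (7 without replicate 2 of gpa1 under ABA). The agb1 by gpa1 interaction (3) gave 1 with means of at least 6 and 1 on pair means, and 3 in every fit without 1 array. The agb1 by ABA interaction (2) gave 0 unpaired and 0 with the replicate block by limma (343 and 711 at an unadjusted p under 0.05; adjusted p with the block 0.058 for 253204_at and 0.141 for 260973_at), 1 with means of at least 6, 1 among the brighter probe sets and 0 to 2 without 1 array. In leaves (4) it was 2 with means of at least 6, 2 with robust moderation, 0 on pair means, EtOH or ABA arrays (1457, 2041 and 645 at an unadjusted p under 0.05), and 2 to 5 without 1 array. Guard cells minus leaves (9) gave 65 unpaired, 16 with the replicate block, 17 centred, 0 with means of at least 6 (794 at an unadjusted p under 0.05), 5 from group means, 1 on EtOH and 0 on ABA arrays (764 at an unadjusted p under 0.05), and 4 to 18 without 1 array (10 of 48 fits moved it by over 1.5 times; 18 without replicate 3 of guard cell agb1 under ABA, 4 without replicate 1 of leaf gpa1 under ABA). The causes were not tested. A difference that missed the threshold was not shown to be absent.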

Other observations

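Pairs of neighbouring loci fell together in guard cells without AGB1. AT1G55450 and AT1G55460 had agb1 effects of -0.998 and -0.48, and AT5G48530 and AT5G48540 of -0.44 (SE 0.10, adjusted p 0.0341 by limma) and -1.01. These were the 2 pairs of adjacent locus numbers among the 58 called genes. UGT73C7, a UDP-glycosyltransferase whose locus number follows that of UGT73D1, had a difference of -0.78 that was not called (adjusted p 0.112).

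Some genes differed in 1 background and treatment with no called agb1 effect over all 24 arrays; they were chosen after their values were seen. AT2G22320 had a mean of 7.14 ± 0.70 in WT under EtOH against 4.90 ± 0.22 in agb1, 5.64 ± 0.24 in gpa1 and 4.79 ± 0.74 in agb1 gpa1 (SD, n = 3), and a difference of -2.24 (SE 0.34) between agb1 and WT, with an adjusted p of 0.01 by limma. AT4G15975 fell in the same comparison by 1.45 on the log2 scale, with an adjusted p of 0.0233 by limma, from 6.97 ± 0.57 to 5.52 ± 0.41 (SD). AT2G46780 was lower in agb1 gpa1 than in gpa1 under ABA, with a difference of -1.05 (SE 0.17) at an adjusted p of 0.0392 by limma. Its means under ABA were 5.04 ± 0.48 in gpa1, 3.99 ± 0.13 in agb1 gpa1, 4.10 ± 0.15 in WT and 4.33 ± 0.10 in agb1 (SD, n = 3). The gpa1 group thus stood above the others, and the double mutant lay near WT.

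In leaves, AT3G12730 rose without AGB1 (0.59, SE 0.09, adjusted p 0.015 by limma) and AT1G22430 fell (-0.70, SE 0.12, adjusted p 0.0456). In guard cells their agb1 effects were 0.25 and -0.05, neither called.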
